A study of Equus caballus with 22 samples.

Results

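CALCA is the gene of calcitonin and of calcitonin gene-related peptide (CGRP), and it is described here in the uterine lining (endometrium) of warmblood mares. It is 1 of the 675 genes that could be named on a horse microarray, and it was measured by 6 of the 43603 probes, namely every non-control probe whose accession is a RefSeq transcript of CALCA. Probes A_69_P000571 to A_69_P000575 carry the accession NM_001085424 and probe A_69_P000561 carries NM_001081854. The gene was chosen by its difference at day 12, where probe A_69_P000575 was higher in pregnant than in control samples, so the day 12 values below are a description without a test, and the day 8 values of probe A_69_P000561 are the independent test.

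Mares were biopsied on day 12 or on day 8 of pregnancy, once the embryo was recovered, and at the matching stage when not pregnant. The 4 groups were pregnant at day 12 (n = 6 mares), control at day 12 (the same 6 mares), pregnant at day 8 (n = 5 mares) and control at day 8 (the same 5 mares). No allele, drug or cell sort was named in the labels, the biopsies are whole tissue, and the labels name an embryo recovery for the pregnant samples only. Each sample was labelled with Cy3 and hybridised to 1 array. The question was how pregnancy alters endometrial transcripts at either day.

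One CALCA transcript can be spliced in alternative ways. In thyroid C cells the main product is calcitonin, a hormone that lowers blood calcium, and in sensory neurons it is CGRP, a peptide that widens blood vessels and relaxes smooth muscle. In the uterus of the rat, calcitonin made by the glandular epithelium around implantation is a known response to progesterone. Which of the peptides each horse accession encodes is not annotated in the sources used, and the probes' own sequences were not used.

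Signal is given in 2 ways. Intensity is the processed signal of a spot in scanner units, background-subtracted and not scaled between arrays. Where no significant signal was left after subtraction, it was a small positive value close to its own error. A_69_P000575 in control mare 6 at day 8 had 1.01 units with an error of 1.01, where plain background subtraction gave -1.42. Such low values are stand-ins and not measured brightness. Level is log2 intensity minus that of the 75th percentile of the array, so a value of zero would be a bright spot. A spot counts as well above background by the flag of the scanner software. The lowest spot so marked had an intensity of 4.46 to 9.65 units, depending on the array, and most CALCA spots lay near or under that floor. On the arrays as a whole, 74.2% to 92.9% of spots were well above background, the 75th percentile of intensity was 577 to 1863 units and no spot was saturated. The 2 day 12 pairs of slide 3 (mares 4 and 6) were the dimmest of day 12, with 74.2% to 78.2% of spots well above background. The uterine secretory lipocalin P19 and the oestrogen receptor ESR1 were well above background on every array. So were the stromal proteoglycan DCN and the epithelial splicing factor ESRP1. This does not identify the tissue, because 31338 of 43603 probes were kept when the flag was required on all arrays. The listed trophoblast markers PAG and CGA also carried the flag on all 22 arrays, control samples included.

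By the well-above-background flag, the transcript NM_001085424 was detected mainly in pregnant endometrium at day 12. Of the spots of its 5 probes, 14 of 30 were well above background in pregnant samples at day 12, against 1 of 30 in control samples of the same mares. At day 8 the numbers were 0 of 25 in pregnant and 3 of 25 in control samples. By a more lenient flag, for signal that is positive and significant, the counts were 28 of 30 in pregnant and 13 of 30 in control samples at day 12, and 3 of 25 in pregnant and 11 of 25 in control samples at day 8. The 14 spots were spread unevenly over the pregnant mares: mares 2 and 5 had all 5 probes above background, mare 3 had 3, mare 1 had 1, and mares 4 and 6 had none. The single control spot at day 12 belonged to mare 5. In whole tissue, a change in the number of expressing cells and a change in RNA per cell cannot be told apart.

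**Figure D1:**
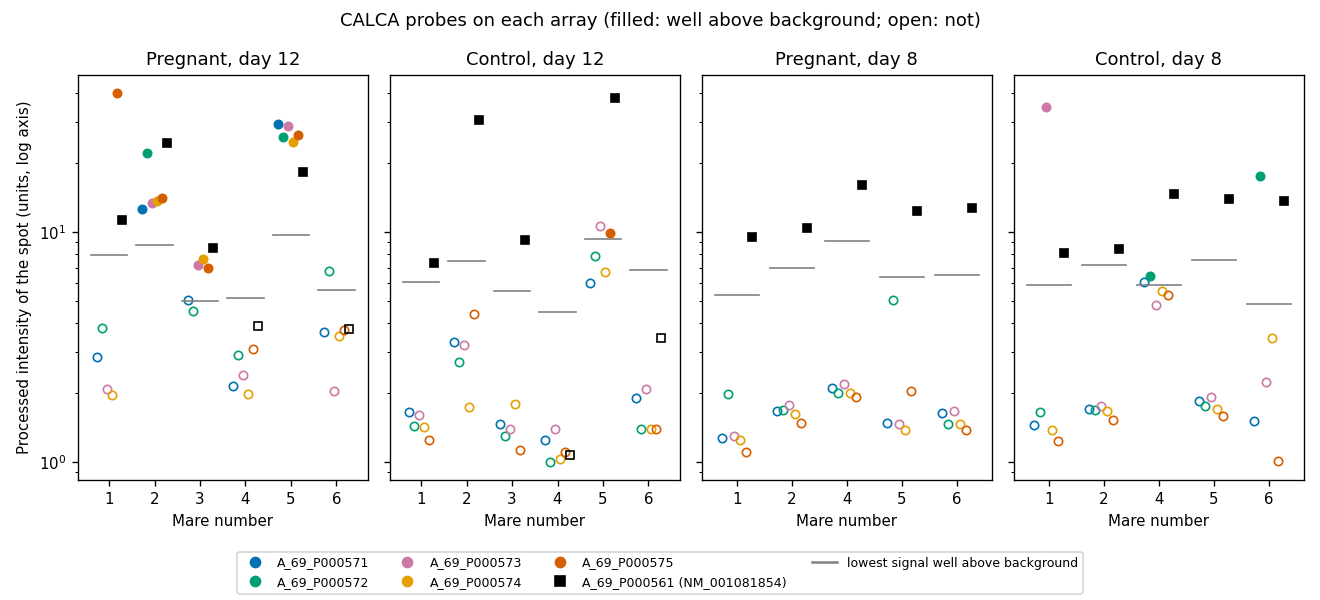
Processed intensity (units, log axis) of each CALCA spot by mare number in the 4 groups; circles are the 5 NM_001085424 probes, squares probe A_69_P000561, filled symbols are well above background and grey bars mark the lowest signal so marked on that array. In pregnant day 12 samples, filled circles appear in mares 1, 2, 3 and 5, while in control day 12 samples 1 circle is filled.

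Probe A_69_P000575 is the one whose day 12 values chose the gene. In pregnant samples at day 12 it had 40.1 units in mare 1, 14.0 in mare 2, 6.96 in mare 3, 3.08 in mare 4, 26.3 in mare 5 and 3.76 in mare 6. In control samples it had 1.25, 4.39, 1.13, 1.103, 9.86 and 1.39 units in the same order of mares. It was higher in the pregnant sample of all 6 mares, although the groups overlap, since control mare 5 was above pregnant mares 3, 4 and 6. The flag was set in 4 of 6 pregnant mares and in 1 of 6 controls, so the fold rests on control values that are mostly background. The fitted difference in level was 2.23 ± 0.37 log2 (SE, n = 6 mares), a 4.70-fold higher signal. Within the mares it was 4.28, 1.65, 3.03, 1.64, 1.55 and 1.25 log2 for mares 1 to 6.

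The highest of these differences rests on 1 spot. In pregnant mare 1, probe A_69_P000575 gave 40.1 units while none of the other 4 probes of the transcript exceeded 3.83, a ratio of 10.46. The spot carried no flag for non-uniform pixels. Its median pixel was 38 against a local background of 19, close to the 37 and 18 of pregnant mare 2, whose processed intensity was 14.0. Without mare 1 the difference was 1.82 log2. A very bright spot of 18937 to 73031 units lies next to this probe on all arrays, including those where the probe read about 1 unit, and its part in the values was not tested.

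The median of the 5 probes on an array cannot be set by 1 odd spot. The median intensity of the 5 probes in pregnant samples at day 12 was 2.86, 13.6, 6.96, 2.38, 26.3 and 3.66 units for mares 1 to 6. In control samples it was 1.44, 3.24, 1.39, 1.103, 7.88 and 1.39 units. It was higher in the pregnant sample of all 6 mares, with mares 2 and 5 the highest in both conditions and mare 1 nearly level. The difference in level averaged 1.57 ± 0.35 log2 (SE, n = 6), a 2.96-fold higher signal, and ran from 0.27 in mare 1 to 2.74 in mare 3. This value describes the processed signal and is no estimate of the fold in RNA, since 1 of 30 control spots carried the flag. With normexp background correction it was 0.94 log2, where the median difference of all probes tested was 0.34. The median lay above the 95th percentile of the array's 153 negative control spots on 6 of 6 pregnant and 2 of 6 control arrays. Leaving A_69_P000575 out, the median of the other 4 probes was 1.46 log2 higher in pregnant samples, in 5 of 6 mares.

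**Figure D2:**
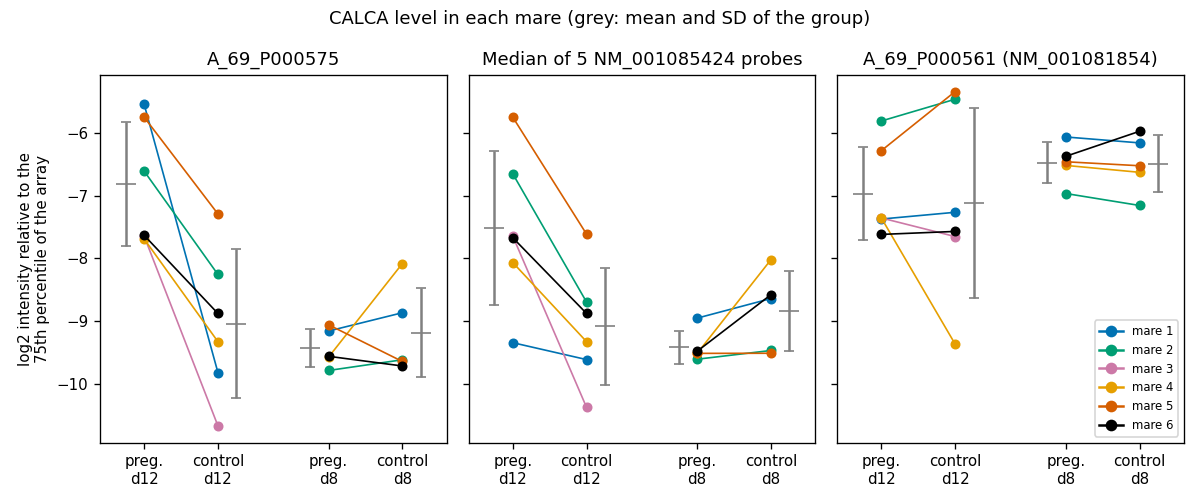
Level (log2, scaled by the array's 75th percentile) of probe A_69_P000575, of the median of the 5 NM_001085424 probes and of probe A_69_P000561, with lines joining the pregnant and control sample of a mare and grey bars for the mean and SD. At day 12 all 6 lines of the median slope down towards the control sample, by 0.27 to 2.74 log2, while the lines of A_69_P000561 go both ways.

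The remaining probes of the transcript differed in size. A_69_P000571 was 1.38 log2 higher in pregnant samples at day 12 and A_69_P000572 was 1.93 higher, each in all 6 mares. A_69_P000574 was 1.58 higher in 5 of 6 mares, and A_69_P000573 was 1.13 higher in 4 of 6. These 4 probes were well above background on too few arrays to enter the fit across probes. None of them was above background on a control array at day 12, so the measured values bound the fold only loosely. With each control array counted at its detection floor or its own value, whichever is higher, A_69_P000572 was 1.15-fold higher in pregnant samples. Its mean level was -7.24 in pregnant and -9.17 in control samples, with 2 of 6 pregnant arrays above background. For the other 3 probes the same value did not exceed 1. Pregnant spots without the flag kept their own values, so these are no strict lower bounds.

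Within single mares, approximate bounds could be given where the pregnant spot carried the flag and the control spot did not. They too are no strict lower bounds, because a spot can lack the flag above the floor of its array. A_69_P000573 in control mare 5 did so, with 10.6 units against a floor of 9.28. The errors of the spots are not included. In mare 5 these bounds ran from 2.91-fold to 3.48-fold for the 4 probes A_69_P000571 to A_69_P000574. In mare 2 the bounds of the 5 probes ran from 1.67-fold to 2.91-fold. In mare 3 they were 1.73-fold for A_69_P000573, 1.82-fold for A_69_P000574 and 1.67-fold for A_69_P000575. The largest, 4.00-fold in mare 1, is that of the lone spot of A_69_P000575.

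**Figure D3:**
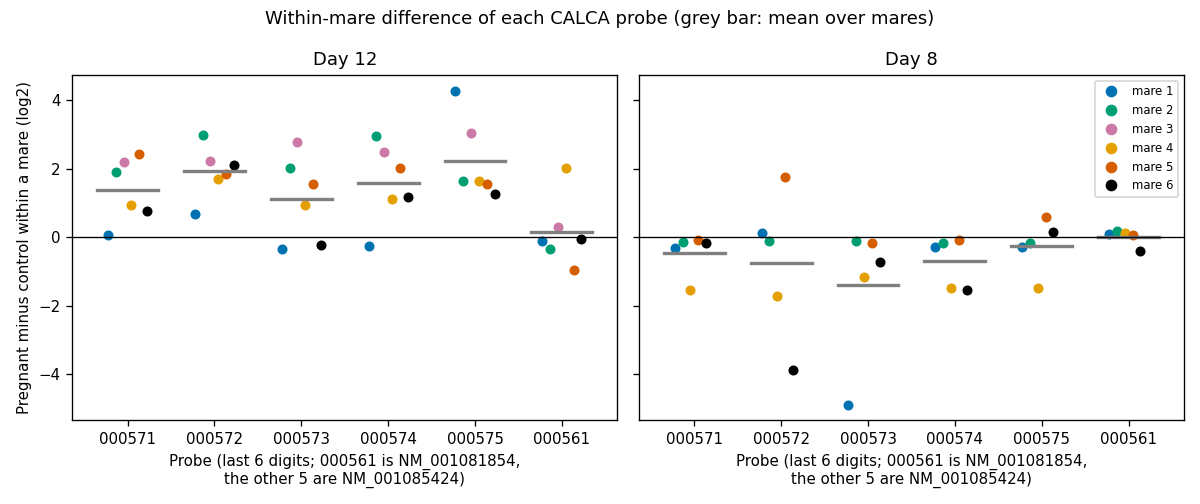
Pregnant minus control difference in level (log2) of each CALCA probe within each mare at day 12 and day 8, with grey bars for the mean. At day 12 the means of the 5 NM_001085424 probes lie between 1.13 and 2.23 and that of A_69_P000561 is 0.14; at day 8 the large negative points of A_69_P000572 and A_69_P000573 are single spots of control mares 6 and 1.

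At day 8 the transcript was near background in both conditions. The median intensity of the 5 probes was 1.28, 1.67, 1.99, 1.48 and 1.46 units in pregnant mares 1, 2, 4, 5 and 6. In control samples of these mares it was 1.44, 1.68, 5.53, 1.74 and 2.23 units. Control mare 4 stood out, with all 5 of its spots between 4.80 and 6.45 units and 1 of them well above background. The pregnant value was the lower one in all 5 mares, by differences of -1.497 to -0.0017 log2 with a mean of -0.57, but both groups lay mostly below the detection floor and no fold is given. The other 2 control spots well above background at day 8 stood alone on their arrays: A_69_P000573 gave 34.9 units in mare 1 where the other 4 probes did not pass 1.65, and A_69_P000572 gave 17.5 units in mare 6 where they did not pass 3.46.

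Ordered by the mean level of the 5-probe median, pregnant day 12 samples came first at -7.52 ± 1.23 (SD, n = 6). Control day 8 samples followed at -8.85 ± 0.64 (n = 5), control day 12 samples at -9.09 ± 0.94 (n = 6) and pregnant day 8 samples at -9.42 ± 0.26 (n = 5). The last 3 groups did not differ beyond their spread, and the range of the pregnant day 12 group, -9.35 to -5.74, overlaps all of them. The pregnant minus control difference was 2.14 log2 higher at day 12 than at day 8, where most values lay below the detection floor. This was not tested because the day 12 contrast was used to choose the gene. Day 8 and day 12 arrays were scanned on different slides and days, with different versions of the scanner software, so day and batch cannot be told apart.

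The slides within day 12 can be compared, because both arrays of a mare shared a slide. The 5-probe median was higher in pregnant samples by 1.502 log2 on slide 1 (mares 1 and 3), 2.05 on slide 2 (mare 2), 1.24 on slide 3 (mares 4 and 6) and 1.87 on slide 4 (mare 5). For A_69_P000575 the same differences were 3.66, 1.65, 1.44 and 1.55 log2. Every slide gave a positive difference for both measures, which had to follow from all 6 mares being higher. Without the dim slide 3, the 5-probe median was 1.73 log2 higher in pregnant samples. Mares 2 and 5, which gave the highest 5-probe medians in both conditions, were scanned on the same day.

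The transcript NM_001081854 was detected in all 4 groups. Its probe A_69_P000561 was well above background in 4 of 6 pregnant samples and 4 of 6 controls at day 12, and in all 5 pregnant samples and all 5 controls at day 8. At day 12 it had 3.79, 9.89 and 24.4 units as the lowest, median and highest value in pregnant samples, and 1.07, 8.28 and 38.3 units in control samples. The groups overlap over most of their range, and the 4 arrays below the flag are those of mares 4 and 6. The fitted difference was 0.14 ± 0.28 log2 (SE, n = 6), with the pregnant sample higher in 2 of 6 mares. It ran from -0.94 in mare 5 to 2.01 in mare 4, whose spots both lacked the flag. With normexp background correction the fitted difference was 0.68 ± 0.44 log2, beside 0.94 for the 5-probe median. The gap between the 2 transcripts thus depended on the background correction.

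At day 8, where a test of CALCA is independent of how it was picked, no difference of A_69_P000561 with pregnancy was detectable. Its intensity was 9.49, 10.4, 16.0, 12.4 and 12.6 units in pregnant mares 1, 2, 4, 5 and 6. In their control samples it was 8.11, 8.40, 14.6, 13.9 and 13.6 units. The 2 sets of values cover nearly the same range. The difference was 0.01 ± 0.31 log2 (SE, n = 5 mares, limma adjusted p = 0.998), higher in pregnant samples in 4 of 5 mares, with a 95% interval of -0.67 to 0.69. That SE and interval come from the fit of both days together, so they also draw on the spread at day 12. The day 8 differences alone had an SD of 0.235 and an SE of 0.105 log2. Those of day 12 had an SD of 1.00. Changes within the interval are not excluded by that fit, and its width is not that of these 5 mares alone. As background, 0% of the 38457 probes tested at day 8 passed an adjusted p of 0.05 in limma, and 2243 had an unadjusted p below 0.05.

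The 2 control groups gave A_69_P000561 a mean level of -7.11 ± 1.52 at day 12 (SD, n = 6) and -6.48 ± 0.46 at day 8 (n = 5), a difference of -0.62 ± 0.63 (SE). The pregnant groups had -6.96 ± 0.74 at day 12 and -6.47 ± 0.33 at day 8. All 4 groups lie within the spread of the day 12 control samples. Over the 22 arrays the level of this probe went with the share of spots well above background (Pearson r = 0.62), and for the 5-probe median that r was 0.23, both a description over arrays that share mares and slides.

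Of the 2 transcripts' 6 probes, 2 passed the filter of being well above background on at least 5 arrays, A_69_P000561 with 18 arrays and A_69_P000575 with exactly 5. For A_69_P000575, 4 of these were pregnant day 12 arrays, so its difference in the fit is no separate evidence. At day 12, 0.265% of the 38461 probes tested passed an adjusted p of 0.05, 0.211% higher and 0.0546% lower in pregnant samples, and A_69_P000575 was among those higher, as the choice of the gene required. That call was lost in 10 of 15 other settings, among them no filter, normexp, no replicate block and the runs without mare 1, 2, 4 or 6. In the authors' deposited table, A_69_P000575 had log2 values of 5.84, 5.11, 4.92, 4.01, 6.33 and 3.96 in pregnant mares 1 to 6, against 4.85, 4.72, 4.56, 3.87, 5.77 and 3.81 in control samples. There too the pregnant value was the higher one in every mare, but by a mean of 0.43 log2 in the authors' deposited table. How that table was centred and normalised is not stated, and it holds no value for A_69_P000575 at day 8 or for the other 4 probes of the transcript.

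Other parts of the calcitonin system could be followed only in part. CALCB, a related CGRP gene that is a near neighbour of CALCA in the horse reference assembly TB-T2T, has 1 probe, which was well above background on 0 of 22 arrays. Its level averaged -9.31 ± 0.85 in pregnant and -9.12 ± 1.08 in control samples at day 12 (SD, n = 6 each), and no fold is given. None of the 10 listed receptor and coupling genes, among them the receptors CALCR and CALCRL and the accessory proteins RAMP1 to RAMP3, had a probe with a matched RefSeq accession, so they were not analysed here.

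Outside the CALCA family, 11 listed genes of hormone release, calcium handling, cyclic AMP signalling and steroid response could be tested, and 1 of them passed at day 12. The lists were chosen with earlier results of these data known, so a call among them is no independent evidence. At an unadjusted p below 0.05 the count was 1 higher and 1 lower of 11, where 12.5% of all probes tested were below it and 0.265% passed the adjusted threshold. Their median difference was -0.11 log2, against -0.02 over all probes tested. The gene that passed was CHGA, the source of chromogranin A, a protein of hormone storage granules. It was read by the brightest of its 5 probes, and the others are not shown. PAM, the enzyme that adds the terminal amide both calcitonin and CGRP need, differed by 0.03 ± 0.12 log2 at day 12 (SE, n = 6, limma adjusted p = 0.944) and 0.07 ± 0.13 at day 8. The sign of the PAM difference at day 12 turned under a different background correction, to -0.17. FOS, an early response gene downstream of cyclic AMP, was 1.64 ± 0.81 log2 higher at day 12 with an adjusted p of 0.441 in limma.

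CHGA was higher in pregnant samples at day 12 by 2.79 ± 0.48 log2 (SE, n = 6, limma adjusted p = 0.0449) and lower at day 8 by a value of -1.30 ± 0.53 that did not pass (n = 5, adjusted p = 0.833). Its call at day 12 was lost in 10 of 15 other settings, with adjusted p from 0.00673 to 0.498, among them the runs without mare 1, 2, 4 or 6, with 0.0857 to 0.148. Beside the 5-probe median of CALCA, at day 12 CHGA differed by 4.87 log2 in mare 3, where CALCA differed by 2.74, and by 0.25 in mare 5, where CALCA differed by 1.87. In mares 4 and 6, CHGA differed by 3.77 and 3.91 log2, and none of the 5 CALCA probes was well above background on either array, so no order of the mares is read from these values. At day 8 both genes were lower in the pregnant sample of all 5 mares, CHGA by differences of -1.89 to -0.74 and CALCA by differences of -1.497 to -0.0017, of which those of mares 4 and 6 had a control median above the 95th percentile of the negative controls. The day 12 effect of CHGA exceeded its day 8 effect by 4.09 ± 0.72 log2 without passing (limma adjusted p = 0.146), in a comparison where 0.0104% of all probes tested passed, 0.0078% higher and 0.0026% lower.

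The calcium and steroid genes did not pass at day 12. S100G, the calcium-binding protein calbindin D9k, differed by 0.42 ± 0.37 log2 at day 12 (SE, n = 6) and -0.05 ± 0.41 at day 8 (n = 5). ATP2A2, a calcium pump of the endoplasmic reticulum, differed by -0.11 ± 0.11 at day 12. HSD11B2, which inactivates cortisol, was lower in the pregnant sample of 6 of 6 mares at day 12, by a mean of -0.77 ± 0.23, with an adjusted p of 0.193 in limma, and its sign turned with another background correction, to 0.13. ESR1 differed by -0.18 ± 0.17 and P19 by -0.07 ± 0.15.

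**Figure D4:**
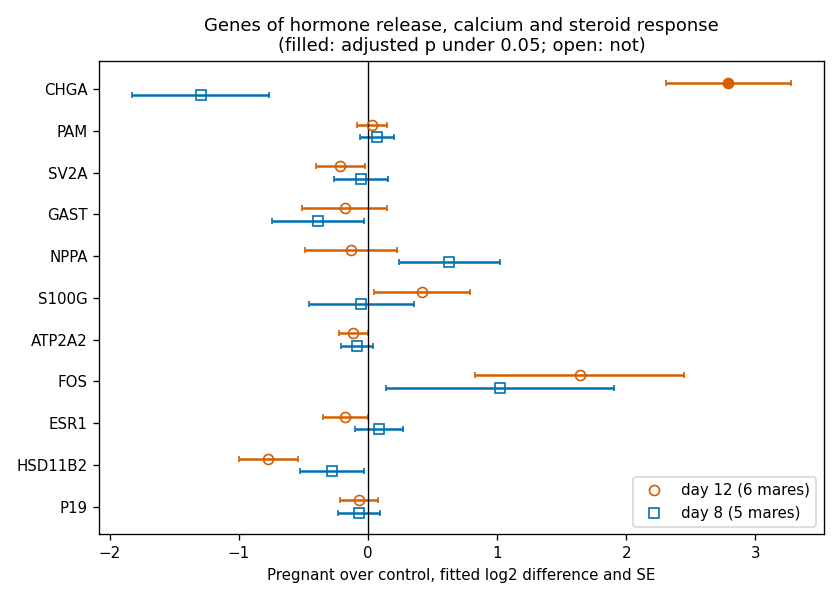
Fitted log2 difference, pregnant over control, with SE bars, for the 11 listed genes tested beside CALCA, at day 12 (6 mares, circles) and day 8 (5 mares, squares). The filled circle is CHGA at day 12, with 2.79 ± 0.48; all other points are open because they did not pass an adjusted p of 0.05.

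Between the control groups, 4 of the same 11 genes were lower at day 12 than at day 8 and 0 were higher in limma, in a comparison where 7.09% of all probes tested passed, 2.47% higher and 4.62% lower. At an unadjusted p below 0.05, 7 were lower and 0 higher, beside 26.4% of all probes tested. Gastrin (GAST) differed by -3.10, the vesicle protein SV2A by -2.73, HSD11B2 by -1.48 and ATP2A2 by -0.83 log2, with adjusted p from 0.00925 to 0.0232. All 4 calls were lost with the mare number as a block, with adjusted p of 0.094 to 0.107. With scan day as a random block in limma, GAST, HSD11B2 and ATP2A2 missed, with adjusted p of 0.0649, 0.107 and 0.141. SV2A passed there with 0.0466. With slide as a random block ATP2A2 missed, with 0.0578. In the authors' deposited table HSD11B2 and ATP2A2 missed, with 0.273 and 0.931, while GAST and SV2A passed. Without mare 4 or mare 5, HSD11B2 also missed, with 0.0572 and 0.0563, and ATP2A2 missed without mare 2, 4, 5 or 6, with 0.0647 to 0.0945. The control difference of A_69_P000575 was 0.15 ± 0.54 log2 (SE), mostly between background values. Slide, scan day and scanner software all changed with the day here, and the genes were listed with earlier results of these data known.

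Markers of the other cell types that a biopsy can hold were read beside CALCA. Of 73 listed marker genes, 15 could be tested, and 0 passed at day 12 by limma's adjusted p, with 3 higher and 1 lower at an unadjusted p below 0.05, beside 12.5% of all probes tested. Among nerve and neuroendocrine markers, UCHL1, a neuronal ubiquitin hydrolase, differed by 0.48 ± 0.33 log2 at day 12 (SE, n = 6) and was well above background on every array. DBH, the noradrenaline-synthesising enzyme of sympathetic nerves, was well above background on 1 array, in a pregnant day 8 sample. TAGLN of smooth muscle was 0.90 ± 0.23 log2 higher in pregnant samples at day 12, in 6 of 6 mares, with an adjusted p of 0.139 in limma, and CD14 of macrophages was 0.51 ± 0.16 higher in 5 of 6 mares with an adjusted p of 0.214. The other macrophage and dendritic cell markers, CD68, LAPTM5 and ITGAX, differed by 0.00066, 0.08 and 0.17 log2. Of the endothelial and blood markers, PECAM1 of endothelium differed by 0.44 ± 0.16 and ITGA2B of platelets by -0.29 ± 0.08, neither past the adjusted threshold. The part of these cells in the CALCA difference was not tested.

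Genes whose pattern was most like CALCA depended on which transcript was followed. For A_69_P000561, the 5 of 599 named genes with the highest Pearson r of level over 22 arrays were YTHDF2 (0.90), a reader of modified RNA, the cell cycle factor E2F7 (0.86), the Mediator subunit MED14 (0.86), muscle glycogen phosphorylase PYGM (0.85) and the steroid side-chain cleavage enzyme CYP11A1 (0.85). For its within-mare differences over 11 pairs they were PRKAB2 (0.86), YTHDF2 (0.84), APEX2 (0.82), LRRC4 (0.80) and BTBD7 (0.77). For the 5-probe median, the levels most alike were those of growth hormone GH1 (0.77), the antiviral enzyme OAS2 (0.72), the protease inhibitor TIMP1 (0.70), the interferon-induced IFI27 (0.67) and ferritin light chain FTL (0.66). For its differences they were the small GTPase RND3 (0.80), CHGA (0.75), surfactant protein SFTPA1 (0.75), OAS3 (0.75) and IGSF6 (0.74). Some of these genes lacked the flag on many of the 22 arrays: E2F7 was well above background on 7, GH1 on 12 and LRRC4 on 14. The points correlated share mares, slides and array brightness. With rank correlation in place of r only 0 to 2 of each set of 5 remained. With day 12 alone, 1 to 4 of each set of 5 remained. The r of the CHGA differences with those of the 5-probe median was then 0.31 over 6 pairs.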

How the data were processed

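Total RNA of 22 endometrial samples had been hybridised to 1-colour Agilent horse arrays. The authors' scanner files hold spot intensity on a linear scale, background-subtracted and spatially detrended per the file headers, made with Agilent Feature Extraction 10.5.1.1 (day 12) or 10.7.3.1 (day 8) per the file headers. The authors' deposited value table was read as log2 values and used as an alternative. Detection flags, of the unit other, are those the authors' software wrote per the file headers.

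Each array's 75th percentile was subtracted from its log2 intensities. Non-uniform spots were left out, spots of a probe were averaged, and 38461 of 43603 probes were kept because 5 or more of the 22 arrays showed them well above background. Symbols came from RefSeq accessions in a gene table of assembly TB-T2T, which named 1394 probes. The two-sided tests were made with lmFit and eBayes (limma 3.58.1, R 4.3.3), adjusted by Benjamini-Hochberg over all probes kept. A single fit of the 22 arrays held a block for every mare at each day, so its SEs draw on the spread of both days. The 11 control arrays were fitted alone. Mares are separate animals, and whether a mare number means the same animal at both days is not stated. Same-mare arrays deviated together in all 11 pairs, with r from 0.289 to 0.817 over 31038 probes. Tested on simulated data for day 12, the fit recovered 63% of 100 probes changed by 1 log2 and 92% of 100 changed by 2, of 38461. Precision is limited by the number of arrays.

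Named were CALCA by each probe, the measured members of the gene lists by their brightest probe, and the 5 genes most like CALCA for each measure. The members and lists were chosen with earlier results of these data known. Medians over the 5 probes, their likeness and the run without slide 3 were added after seeing the data. Alternatives changed the background correction, scaling, filter, prior, block and mares. The normexp alternative used median spot signals. One listed marker is not reported here.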

Additional observations from a re-analysis of the deposited data

Results flagged for a closer look

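Outlying samples were looked for in 42 groups of CALCA values, and 6 stood apart by Dixon's criterion; chance alone flags about 1 in 20 groups. In control samples at day 8, the level of A_69_P000573 was -4.05 in mare 1, where the next highest was -8.22. The pregnant minus control difference of the same probe at day 8 was therefore -4.89 in mare 1, with the next lowest at -1.16. The difference of A_69_P000571 at day 8 was -1.55 in mare 4, next to -0.31. The difference of A_69_P000561 at day 8 was -0.40 in mare 6, while the other 4 mares lay at or above 0.06. In pregnant samples at day 8, mare 1 had the highest level of A_69_P000574, -8.99, and of the 5-probe median, -8.95, with the next at -9.48 for both. Its intensities, 1.24 and 1.28 units, were the lowest of that group. Its array also had the lowest 75th percentile of the group, 633 units, so these levels were highest only through the scaling. All these values but those of A_69_P000561 and the bright control spot of mare 1 come from spots below the detection flag.

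For the 5-probe median, every mare was higher in the pregnant sample at day 12 and lower at day 8. The difference between days was 2.14 log2. A_69_P000571 had the same signs, with 1.84 log2. At day 8, 0 of 25 pregnant and 3 of 25 control spots of the 5 probes were well above background. The day 8 signs are therefore mostly those of background values, and no reversal is read from them. The difference between days was not tested, because the day 12 values picked the gene.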

How the results depend on the processing

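For A_69_P000575 the day 12 difference of 2.23 log2 was 0.95 with normexp background correction and 0.43 in the authors' deposited table, and 2.60 with quantile scaling; it kept its value under the block, prior and filter settings that kept the probe, though its call was lost in 10 of 15 settings, and was 1.82 to 2.43 when leaving out 1 mare. Under normexp the day 12 differences of all probes had a median of 0.34, and that of A_69_P000561 rose from 0.14 to 0.68. The 5-probe median was 0.94 to 1.88 log2 over all settings run, 1.33 to 1.83 of it when leaving out 1 mare. With the more lenient flag, detected spots at day 12 numbered 28 of 30 in pregnant and 13 of 30 in control samples. The day 8 difference of A_69_P000561, 0.01, turned to -0.0082 with normexp and ran from -0.033 to 0.11 when leaving out 1 mare; the fit without the replicate block gave 0.01 as well, with an adjusted p of 1 in limma. PAM at day 12 turned to -0.17 and HSD11B2 to 0.13 with normexp, and PAM ran from -0.045 to 0.14 when leaving out 1 mare, negative without mare 1 and without mare 6.

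Probes called at day 12, 102 with the pairing block, numbered 13 with normexp, 218 with detection on all arrays, 45 in the authors' table, 287 with a trended prior, 41 with no replicate block, 56 with the mare number across days as the block and 9 with day 12 alone. Leaving out 1 mare gave 31 to 977, the highest without mare 3 and the lowest without mare 1. For the difference between days, 4 became 0 with quantile scaling, detection on all arrays, the authors' table or no block, 2 with no filter, the block across days or slide, and 11 with a trended prior, or 0 to 33 when leaving out 1 mare. Between control groups, 2727 became 1645 with normexp, 4458 with quantile scaling, 282 in the authors' table, 31 with the mare number as the replicate block, 772 and 211 with slide and scan day as random blocks, and 347 to 2046 when leaving out 1 mare. The cause of these shifts was not tested. Day 8 kept 0 calls in all 15 settings. Most CALCA spots lie near the detection floor, which limits every fold given.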
